A study of Homo sapiens with 6 samples.

Results

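The guides described here are those of the 49 genes that have no guide in the first set of a custom library, that is, no guide numbered below 1496 in the authors' numbering. By the study's methods, the library targets genes picked from public dependency data for their weight in synovial sarcoma lines. There are 486 such guides among the 3653 guides of the library, and 49 such genes among its 348 targeted genes. Each of 48 genes has 10 guides and MTRNR2L3 has 6. The other 299 genes have first set guides and 1489 guides of the second set, and 183 guides are non-targeting. The screen was run in HS-SY-II-Cas9 cells, a line from a human synovial sarcoma with the fusion SS18::SSX1, made to express Cas9. All 6 libraries come from cells that carry the guides: 2 were taken at day 0, 2 after culture in vitro to day 14 (culture below), and 2 from tumours grown in vivo in nude mice, which lack most T cells. By the study's methods, cells were selected with puromycin and each transduction was divided between the culture and the mice, so that both arms are compared with the same day 0 libraries. Every value is limited to this single line. The study states that cells were transduced in duplicate and that each replicate was cultured, whereas the labels tell replicates apart by number alone. Whether the 2 in vivo libraries stem from separate transductions is not settled by the labels. P-values measure the spread between these libraries.

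In a pooled knockout screen each guide RNA leads Cas9 to the DNA that it matches, and repair of the cut often breaks the reading frame. A guide whose target is needed for growth loses its share of the population with each division, whereas a guide without such a target keeps it. Cas9 cuts at every place that matches a guide next to an NGG motif, so a guide to a copied sequence can cut several places at once.

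Many of the 49 names belong to genes with a close copy elsewhere, or to pseudogenes, which are copies that have lost the function of their parent. Guide sequences were not used here, so the targets were described through candidate Cas9 sites, the 20 bases before each NGG on either strand of the coding exons (of exons or the gene span where no coding exon is annotated) in the hg38 genome. In the median gene of the 49, 12.9% of candidate sites had a second exact match next to NGG in the genome, compared with 0.452% in the median gene of the other 299. At least 50% of the sites had such a match in 17 of the 49 genes (34.7%) and in 13 of the 299 others (4.35%). These shares describe what a guide in the gene could match and not what the guides of the library matched.

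Pairs of loci are shown for 5 of these genes because all 5 were called lower in the tumours (below) and because 1 guide can match both loci. The pairs were thus picked by outcome and do not tell how copies relate to loss. Stretches chosen in the same way also differed at 0 bases between TYW1B, which was called too, and TYW1. The same held for CHRFAM7A and CHRNA7 and for SIGLEC14 and SIGLEC5, where neither CHRFAM7A nor SIGLEC14 was called. Each line holds 63 bases of hg38 read 5′ to 3′ on the strand of the site, and the capitals mark 1 candidate site with its NGG, the middle one of those shared by both loci. LGALS7B and its neighbour LGALS7 on chromosome 19 encode galectin-7, a galactoside-binding lectin of stratified epithelia, and the stretches differed at 0 of the 63 bases:
LGALS7B (chr19:38790771-38790833, + strand): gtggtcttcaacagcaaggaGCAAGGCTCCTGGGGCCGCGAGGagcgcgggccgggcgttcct
LGALS7 (chr19:38771886-38771948, - strand): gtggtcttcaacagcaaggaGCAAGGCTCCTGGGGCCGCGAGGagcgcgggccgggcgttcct
LGALS7 held 87 of 94 candidate sites of LGALS7B. FRG2, a gene beside the repeat array at the end of chromosome 4q, has its copy FRG2B at the end of chromosome 10q, with 1 differing base in the stretch:
FRG2 (chr4:190025851-190025913, + strand): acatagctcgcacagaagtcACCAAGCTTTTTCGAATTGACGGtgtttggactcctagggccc
FRG2B (chr10:133625389-133625451, + strand): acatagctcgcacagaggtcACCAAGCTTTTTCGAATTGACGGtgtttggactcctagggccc
FRG2B held 116 of 130 candidate sites of FRG2, and FRG2C on chromosome 3 held 69. CSH2 encodes a placental lactogen of the growth hormone cluster on chromosome 17 and shares most of its sequence with CSH1, with 0 differing bases in the stretch:
CSH2 (chr17:63872831-63872893, + strand): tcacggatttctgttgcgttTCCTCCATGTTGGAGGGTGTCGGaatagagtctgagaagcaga
CSH1 (chr17:63895727-63895789, + strand): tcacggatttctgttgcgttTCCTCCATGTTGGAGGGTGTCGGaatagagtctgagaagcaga
CSH1 held 97 of 115 candidate sites of CSH2, and the growth hormone gene GH1 held 25. RASA4B encodes a GTPase-activating protein of Ras, and its copy RASA4 lies on the same chromosome, with 0 differing bases in the stretch:
RASA4B (chr7:102503194-102503256, + strand): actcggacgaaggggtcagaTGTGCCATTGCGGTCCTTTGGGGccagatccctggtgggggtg
RASA4 (chr7:102602355-102602417, + strand): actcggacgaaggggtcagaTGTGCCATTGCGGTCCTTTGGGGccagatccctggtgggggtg
RASA4 held 482 of 551 candidate sites of RASA4B. METTL2B and METTL2A encode methyltransferases of transfer RNA, and 0 bases differed between the stretches:
METTL2B (chr7:128479436-128479498, - strand): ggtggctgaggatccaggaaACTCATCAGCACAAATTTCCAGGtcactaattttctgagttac
METTL2A (chr17:62426577-62426639, - strand): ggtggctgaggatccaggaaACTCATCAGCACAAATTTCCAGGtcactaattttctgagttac
METTL2A held 97 of 168 candidate sites of METTL2B.

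Library totals were 3394352 to 21854232 counts, the deepest being day 0 replicate 1, and guides had 929 to 5983 counts on average. The 486 guides took 13.1% and 12.4% of all counts at day 0, 9.39% and 9.76% in culture, and 11.9% and 9.96% in the tumours. Their share was thus lower in both day 14 libraries than in both day 0 libraries, and the in vivo libraries were also below day 0 but apart from each other. Single guides agreed less between tumours than between cultures: 132 of the 475 guides tested (27.8%) differed by more than 4-fold between the 2 in vivo libraries, 25 (5.26%) did so between the day 14 libraries and 6 (1.26%) between the day 0 libraries. A single in vivo value of a guide therefore carries the largest error of the screen.

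Of the 486 guides, 11 had a count of 0 in all 6 libraries and were left out, in 10 genes: 2 in C8orf88 and 1 each in AGAP12P, C11orf71, EIF2AK1, HBM, KIAA1324L, PRDM7, TSSK1B, USP6 and ZNF493. All other guides passed the filter of a mean of 30 counts at day 0, which left 475 guides (97.7%), much as for the second set guides of the other genes (97.9%). The day 0 level of the 486 guides had a median of 212 CPM (counts scaled to library size, with sizes set by TMM, a trimmed mean of guide ratios), with quartiles of 142 and 296 CPM. Medians were 213 CPM for the second set guides of other genes, 236 CPM for the first set and 242 CPM for the non-targeting guides. The guides thus started at levels close to those of the other second set guides.

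Most of the guides lay below their day 0 level in both arms. The median log2 fold change from day 0 was -0.49 in vitro and -0.43 in vivo (edgeR), and 335 of 475 guides (70.5%) were below 0 in vitro and 298 (62.7%) in vivo. The second set guides of other genes lay lower, with medians of -0.60 in vitro and -0.67 in vivo. First set guides had medians of 0.41 and 0.52, close to the non-targeting guides at 0.50 and 0.57. With all guides scaled to the non-targeting ones, the medians of the 486 guides became -1.02 in vitro and -0.97 in vivo, so 0 on the scale used here lies about 0.50 (log2) below the non-targeting guides in vitro and 0.57 below them in vivo. Values are given relative to the TMM scale throughout.

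Strong losses were counted as guides whose CPM in each library of an arm was more than 4-fold below the lower day 0 CPM. In vitro, 15 of the 475 guides (3.16%) were low in both libraries, beside 3.94% of all guides tested and 8.10% of the second set guides of other genes. In vivo, 41 guides (8.63%) were low in both libraries, beside 6.93% of all guides and 12.5% of the other second set guides. The counts were thus close to the library-wide shares and below those of the comparable guides of other genes, and no test was made of that difference. 9 guides were low in both libraries of both arms, and no share over all guides is set beside that overlap. The 15 in vitro guides came from 11 genes, with 4 in LGALS7B, 2 in FRG2 and 1 in each other gene, and the 41 in vivo guides came from 19 genes, with 4 each in FRG2, CSH2 and BICDL1. In the opposite direction, no guide exceeded 4 times the higher day 0 CPM in both in vitro libraries (0% of all guides), and 3 did so in vivo (0.632%, beside 0.693% of all guides).

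The guides fall into 2 runs of numbers. The lower run, 1521 to 3225, holds 5 guides of each of the 49 genes among the second set guides of the other genes, and the upper run, 3241 to 3481, holds 5 more guides of 48 genes and 1 of MTRNR2L3, and no guide of any other gene. Median log2 fold changes of the lower run were -0.56 in vitro and -0.58 in vivo, and those of the upper run -0.38 and -0.27. Guides low in both libraries numbered 6 of 239 in the lower run and 9 of 236 in the upper run in vitro, and 19 and 22 in vivo. Over the 48 genes with both runs, the median log2 fold change of the 5 lower guides and that of the 5 upper guides had a Pearson correlation of 0.57 in vitro and 0.64 in vivo. These are correlations across genes within the same libraries, and genes are not independent replicates. Both runs were below 0 in 31 genes in vitro and 23 in vivo, and the runs had opposite signs in 12 and 16 genes. In vivo the runs parted most in LGALS7B: the median of its lower guides was -3.32 in vitro and -2.68 in the tumours, and that of its upper guides -1.39 and -0.51, a gap of more than 4-fold in the tumours. In METTL2B they stood at -1.65 and -0.37 in the tumours. In USP6 the lower run stood at -1.30 and the upper run at 0.14 in vivo, whereas in C8orf82 both runs were low, at -2.51 and -2.43.

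Genes were compared by a score, which is, in each library, the median over the gene's guides of the log2 difference between the guide's CPM and its day 0 mean. The effect of an arm is its mean score minus the mean day 0 score, given with the standard error of limma, and by construction the 2 day 0 scores of a gene are equal and opposite, at most 0.32 from 0 in the 49 genes. A gene was called at an adjusted p under 0.05 over all 348 genes. In vitro, 6 of the 49 genes fell and none rose, beside 4.89% of all genes lower and 0% higher. Lower scores with an unadjusted p under 0.05 were found in 20 genes and higher ones in 0, beside 32 and 5 of the other 299. From second set guides alone (below) 14 of the 49 and 93 of the 299 were lower at that p. Among the 6 genes called in vitro were LGALS7B, MTRNR2L3, BICDL1, TP53I13 and METTL2B. In vivo, 17 genes fell and none rose, beside 13.2% of all genes lower and 0.287% higher. In both arms 5 genes were called, and no share over all genes is set beside that overlap. The unadjusted p in vivo was under 0.05 in 26 genes with lower scores and 2 with higher ones, beside 66 and 21 of the other 299. From second set guides alone 19 of the 49 and 134 of the 299 were lower at that p. Both tumour scores of each of the 17 genes were below both day 0 scores. The share of genes called in vivo was 34.7% among the 49 and 9.70% among the other 299, whose scores also contain first set guides. In scores from the second set only, which were added after seeing the data, 6 of the 49 (12.2%) and 41 of the 299 (13.7%) fell in vitro, 13.5% in all. In vivo 16 (32.7%) and 100 (33.4%) fell, 33.3% in all. Where the upper run was also left out, nearly every gene had 5 guides. Then 3 of the 49 fell in vitro (6.12%, beside 10.6% of all genes) and 16 in vivo (32.7%, beside 33.0% of all). These were not all the genes called from all guides. In vivo BICDL1, TYW1B and RTEL1-TNFRSF6B lost the call, and HBM and ZNF205 gained one. BICDL1 and TP53I13 were among those that lost it in vitro. On like guides the share called was therefore near the background in vivo and near or below it in vitro, and the larger share among the 49 was that of the score in which the other genes also carry first set guides.

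The gene calls moved with the replicate block and with the libraries. Counts under each setting are of the 49 genes alone, without the share of all 348 genes beside them. With the replicate number as a block, calls among the 49 genes numbered 10 in vitro and 19 in vivo, and with a block by transduction, in which both tumours belong to replicate 1, they numbered 5 and 11. Leaving out day 0 replicate 1 left 0 in vitro and 5 in vivo, and leaving out day 0 replicate 2 left 1 and 8. Without either one of the day 14 libraries they were 2 and 9. Without in vivo replicate 1 they were 23 and 29, and without in vivo replicate 2 they were 23 and 26, so the count was highest when a tumour was left out.

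The 4 genes with the lowest mean effect over both arms, LGALS7B, FRG2, RASA4B and CSH2, all have a close copy. Of the 12 genes listed as near-identical copies, 4 fell in vitro and 8 in vivo, with median effects of -1.29 and -1.17, beside medians of -0.43 and -0.59 over the 49 genes and calls in 4.89% and 13.2% of all 348 genes (13.5% and 33.3% from second set guides). From second set guides, 4 and 7 of the 12 were called. The list was drawn up with earlier results known and leaves out SIGLEC14, KRTAP10-1 and ZNF493, which also have copied sites and were not called. LGALS7B (chr19:38789200-38791754), whose shared site is shown above, scored 0.32 and -0.32 at day 0, -2.11 and -2.95 in culture and -2.67 and -2.38 in the tumours. All arm libraries were far below day 0, and the effects were -2.53 ± 0.34 in vitro (limma, adjusted p = 0.00484) and -2.53 ± 0.34 in vivo (adjusted p = 0.00174). All 10 guides were below 0 in both arms. Guide 2936 had 307 and 144 CPM at day 0, 2.61 and 9.76 CPM in culture and 3.33 and 10.3 CPM in the tumours, so each arm library was at least 10 times lower than each day 0 library. Guide 3443 had 359 and 206 CPM at day 0, 24.6 and 41.2 CPM in culture and 3.88 and 2.59 CPM in the tumours, which was called in vivo (log2 fold change -6.45, edgeR, adjusted p = 0.0426). Guide 3442 had 88.9 and 109 CPM at day 0, 1.04 and 0.887 CPM in culture and 2.22 and 136 CPM in the tumours, and was thus nearly lost from the culture and from 1 tumour but not from the other.

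FRG2 (chr4:190024367-190027257) scored -2.07 and -1.64 in culture and -2.0 and -3.86 in the tumours. It was called in vivo at -2.93 ± 0.50 (limma, adjusted p = 0.00497) and not in vitro at -1.85 ± 0.50 (adjusted p = 0.0632), and all 10 guides were below 0 in both arms. Its guides ranged in log2 fold change from -5.02 to -0.49 in vitro and from -6.33 to -0.31 in vivo. The lowest was guide 3293, with 222 and 118 CPM at day 0, 9.40 and 1.11 CPM in culture and 2.22 and 1.98 CPM in the tumours, low in all 4 arm libraries. CSH2 (chr17:63872012-63873766) scored -1.35 and -1.10 in culture and -2.34 and -3.02 in the tumours, with all 10 guides below 0 in both arms. It fell in vivo by 2.68 on the log2 scale (SE 0.32, limma, adjusted p = 0.00151), and its in vitro effect was -1.23 ± 0.32 (adjusted p = 0.0541). Guide 2465 of CSH2 had 417 and 356 CPM at day 0, 113 and 204 CPM in culture and 15.2 and 24.0 CPM in the tumours, intermediate in the culture and lowest in both tumours, and was called in vivo (edgeR, adjusted p = 0.0426).

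RASA4B (chr7:102479976-102517777), whose shared site is also shown above, was lower in both arms. It scored -1.48 and -2.08 in culture and -3.22 and -1.59 in the tumours and was called in vivo only, at -2.41 ± 0.46 (limma, adjusted p = 0.00785), with 7 of 10 guides below 0 there. Guide 3285 had 231 and 117 CPM at day 0, 30.0 and 35.3 CPM in culture and 2.49 and 1.83 CPM in the tumours and was called (edgeR, adjusted p = 0.0426), and guide 3283 had 58.1 and 67.5 CPM at day 0, 16.5 and 0.222 CPM in culture and 0 and 0.304 CPM in the tumours, the lowest log2 fold change of all 486 guides in vivo (-8.33, adjusted p = 0.106).

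METTL2B and TYW1B, both copies of genes for transfer RNA modification, lay below 0 in all 4 arm libraries. METTL2B (chr7:128476729-128506602) scored -1.41 and -1.30 in culture and -0.87 and -1.65 in the tumours, with effects of -1.36 ± 0.29 in vitro (limma, adjusted p = 0.0225) and -1.26 ± 0.29 in vivo (adjusted p = 0.0193). TYW1B (chr7:72558744-72828200) is a copy of TYW1, an enzyme of wybutosine synthesis in transfer RNA, which held 171 of 250 of its candidate sites. TYW1B scored -1.09 and -1.17 in culture and -0.69 and -1.45 in the tumours, and was called in vivo at -1.07 ± 0.29 (limma, adjusted p = 0.0333). Its guide 3436 had 445 and 209.8 CPM at day 0, 26.6 and 35.3 CPM in culture and 12.2 and 4.11 CPM in the tumours, lower in every arm library, and was called in vivo (edgeR, adjusted p = 0.0426), while the highest guide of the gene had a log2 fold change of 2.89 without a call. Counts summed over the guides of TYW1B were higher in vivo by 0.90 on the log2 scale (edgeR, adjusted p = 0.0246), against the direction of the median guide. TYW1, one of the other 299 genes, had effects of -1.76 ± 0.87 and -3.45 ± 0.87 from its 5 second set guides. Of the 11 listed genes of protein and RNA making, METTL2B was the only one among the 49. From second set guides, 4 of the 5 among the other genes fell in vitro and 5 in vivo, beside 13.5% and 33.3% of all genes, and with first set guides included 2 fell in each arm.

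MTRNR2L3 (RefSeq span chr20:57358433-57359039), a nuclear copy of mitochondrial ribosomal RNA that resembles the source of the peptide humanin, scored -1.53 and -2.04 in culture and -1.53 and -0.65 in the tumours over its 6 guides. It was called in vitro at -1.79 ± 0.33 (limma, adjusted p = 0.0133) and not in vivo at -1.09 ± 0.33 (adjusted p = 0.052), and the difference between the arms did not pass the test (adjusted p = 0.39). The gene for mitochondrial 16S RNA held 9 of 67 of its candidate sites. Guide 2182 had 268 and 284 CPM at day 0, 55.6 and 49.2 CPM in culture and 11.4 and 2.59 CPM in the tumours, lower in each arm, and was called in vivo (edgeR, adjusted p = 0.047). USP6 (chr17:5116032-5175034), a ubiquitin-specific protease that arose from USP32 and TBC1D3, scored -0.97 and -0.94 in culture and -1.12 and -0.78 in the tumours and was called in vivo at -0.95 ± 0.24 (limma, adjusted p = 0.0256). ARHGAP27P1-BPTFP1-KPNA2P3 (chr17:64749663-64781707), a read-through noncoding transcript over pseudogenes, shared 51 of 500 candidate sites with KPNA2, which encodes a nuclear import receptor. It scored -0.47 and -0.89 in culture and -1.29 and -1.47 in the tumours and fell in vivo by 1.38 on the log2 scale (limma, adjusted p = 0.00703).

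A high share of copied sites did not go with a low score in every gene. CHRFAM7A, a partial copy of the nicotinic receptor gene CHRNA7, had a second match at 95.9% of its candidate sites and scored -0.32 and -0.13 in culture and -0.74 and 0.41 in the tumours. AGAP12P, a pseudogene of the AGAP family, had 88.1% and a median of 8 matches per site, the highest median of the genes named here, and scored -0.06 and -0.11 in culture and 0.34 and 0.11 in the tumours. Within AGAP12P, guide 3269 had 182 and 83.2 CPM at day 0, 1.04 and 0.887 CPM in culture and 1.11 and 1.22 CPM in the tumours, and was called in vivo (edgeR, adjusted p = 0.0498), while guide 1672 had 202 and 186 CPM at day 0, 365 and 158 CPM in culture and 399.7 and 9679 CPM in the tumours, high in 1 tumour alone. PRDM7, a relative of the meiotic methyltransferase PRDM9, had 57.1% and effects of -0.77 ± 0.29 and -0.80 ± 0.29, neither called. KRTAP10-1, a keratin-associated protein of hair, had 72.0% and effects of -0.13 ± 0.31 and 0.09 ± 0.31. Over the 49 genes, the 17 with at least 50% of such sites had median effects of -0.96 in vitro and -0.95 in vivo, with 3 and 9 called lower. The 32 with fewer had -0.32 and -0.29, with 3 and 8 called. The same split of the other 299 genes was made from second set guides. The 13 genes with at least 50% had medians of -0.36 and -0.69, with 3 and 6 called lower. The 286 with fewer had -0.61 and -0.76, with 38 and 94 called. From second set guides 3 and 8 of the 17 genes and 3 and 8 of the 32 were called. With first set guides included, the medians of the 13 were 0.12 and 0.07 (3 and 3 called). Those of the 286 were -0.02 and -0.09 (8 and 26 called). SIGLEC14, the gene of the 49 with the highest mean effect, had a second match at 55.9% of its sites. The part of copy number in these values was not tested.

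Other genes fell with few or no copied sites. BICDL1 (chr12:119989236-120094494), an adaptor that links cargo to dynein, had no second match at its 311 candidate sites. It scored 0.08 and -0.08 at day 0, -1.23 and -1.32 in culture and -2.22 and -2.59 in the tumours, with little spread between replicates. It fell in both arms: the effects were -1.28 ± 0.25 in vitro (limma, adjusted p = 0.0161) and -2.41 ± 0.25 in vivo (adjusted p = 0.000884). From the lower run of numbers alone it was called in neither arm (-1.26 and -1.60, limma, adjusted p = 0.2305 and 0.0866). All 10 guides were below 0 in vitro and 9 in vivo. The remaining guide, 2458, had 435 and 371 CPM at day 0, 173 and 86.3 CPM in culture and 5933 and 3264 CPM in the tumours: it was lower in culture like the other guides and was the most expanded of the 3 guides high in both tumours (log2 fold change 3.51, edgeR, adjusted p = 0.0426). Guide 2456, by contrast, had 130.0 and 151 CPM at day 0, 1.31 and 56.1 CPM in culture and 1.66 and 2.28 CPM in the tumours. Since counts summed over the guides follow the most abundant one, the summed counts of BICDL1 rose in vivo by 1.00 on the log2 scale (edgeR, adjusted p = 0.0386), against the median of the guides.

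TP53I13 (chr17:29566052-29573157), named for its induction by p53, had a second match at 0.623% of its sites. It scored -1.27 and -1.92 in culture and -2.13 and -1.36 in the tumours and fell in both arms, at -1.59 ± 0.33 (limma, adjusted p = 0.0213) and -1.75 ± 0.33 (adjusted p = 0.00779). RBM23 (chr14:22893204-22919182), an RNA-binding protein, had no copied site and scored -1.13 and -0.82 in culture and -2.11 and -0.99 in the tumours, with a call in vivo at -1.55 ± 0.37 (limma, adjusted p = 0.0211). C22orf23 (chr22:37943050-37953669), a reading frame without a settled function, scored -0.69 and -0.69 in culture and -0.94 and -1.29 in the tumours and was called in vivo at -1.12 ± 0.24 (adjusted p = 0.0144). RTEL1-TNFRSF6B (chr20:63659300-63698684) is a read-through transcript over the helicase gene RTEL1 and the decoy receptor gene TNFRSF6B. Of its 477 candidate sites, 455 lie in coding exons of RTEL1, which acts in telomere maintenance. A second match was found at 65 of the 477 sites (13.6%), so this gene is not one with few copied sites. The pseudogene RTEL1P1 on chromosome 4 held 56 of the sites. RTEL1-TNFRSF6B scored -0.50 and -0.75 in culture and -0.99 and -1.28 in the tumours. It was called in vivo at -1.13 ± 0.27 (limma, adjusted p = 0.0211). TNFRSF6B, a separate target at the end of the same locus, scored -0.29 and -0.66 in culture and -0.62 and -0.79 in the tumours and did not pass the test in either arm (-0.47 ± 0.25 and -0.70 ± 0.25, adjusted p = 0.0777 in vivo). The difference between these 2 genes was not tested.

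Both genes of the end of chromosome 8q among the 49 had effects below 0, C8orf82 and the zinc finger gene ZNF250. C8orf82 had no copied site and scored 0.14 and -0.14 at day 0, -1.45 and -1.02 in culture and -3.26 and -1.94 in the tumours, with all 10 guides below 0 in both arms. It was called in vivo at -2.60 ± 0.39 (limma, adjusted p = 0.00354) and not in vitro at -1.23 ± 0.39 (adjusted p = 0.0991). Its guide 3390 had 140.5 and 119 CPM at day 0, 23.5 and 20.8 CPM in culture and 7.48 and 1.83 CPM in the tumours, low in all arm libraries. ZNF250 scored -0.61 and -0.78 in culture and -0.32 and -1.70 in the tumours, with 9 of 10 guides below 0 in both arms, and was called in neither (adjusted p = 0.107 in vivo). Of the 10 genes listed for this end of the chromosome, 3 were among the other 299, with median effects of -1.10 in vitro and -0.95 in vivo from second set guides. COMMD5 among them was called in both arms (-1.31 ± 0.36 and -1.21 ± 0.36, limma, adjusted p = 0.0489 and 0.0324), whereas none was called with first set guides included (medians of -0.24 and -0.64). MFSD3, the nearest target to C8orf82 in the library, was not in the list and was chosen after its values were seen. It was called in vivo from second set guides (-2.24 ± 0.37, limma, adjusted p = 0.0029), while KIFC2 beside it was not (-0.86 ± 0.56, adjusted p = 0.255). Further targets near this end, such as SCRIB, NAPRT and MAPK15, were not in the list either and are not given. The genes named here are thus no record of the region. The other 2 genes named for chromosome 8, C8orf58 and C8orf88, lie elsewhere on it and had effects of -0.21 and -0.55 in vivo.

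Histones package DNA, and each is encoded by many near-identical genes. HIST3H2BB (now H2BC26, chr1:228458103-228463104) encodes an H2B and had a second match at 55.0% of its sites, with up to 16 matches per site. It scored -0.87 and -1.49 in culture and -1.97 and -0.89 in the tumours, and HIST1H2AM (now H2AC17, chr6:27892699-27893185), an H2A gene, scored -0.85 and -1.02 in culture and -1.55 and -0.77 in the tumours. Both were called in vivo (limma, adjusted p = 0.0256 for each) and neither in vitro (adjusted p = 0.0898 and 0.0947). HIST1H4I, the single histone gene among the other 299, had effects of -0.73 ± 0.32 and -2.0 ± 0.32 from its 5 second set guides (limma, adjusted p = 0.161 and 0.00235), and thus was also called in vivo. With first set guides included its effects were -0.21 and -0.31, without a call.

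SSX1 is the gene whose end is joined to SS18 in the fusion of HS-SY-II, and SSX3 is a neighbouring member of the family on the X chromosome. SSX1 (chrX:48255392-48267444) scored -0.70 and -0.47 in culture and -0.61 and -0.52 in the tumours, below day 0 in all 4 arm libraries. Its effects of -0.58 ± 0.24 in vitro and -0.57 ± 0.24 in vivo did not pass the test (limma, adjusted p = 0.244 and 0.132). The 10 guides ranged in log2 fold change from -2.03 to 0.02 in vitro and from -2.31 to 0.94 in vivo, and none was low in both libraries of an arm. Guide 1522 was the lowest in vitro, with 266 and 177 CPM at day 0, 53.5 and 55.2 CPM in culture and 102 and 2.43 CPM in the tumours, while guide 3244 had 488 and 379.6 CPM at day 0, 288 and 554 CPM in culture and 1015 and 653 CPM in the tumours and thus exceeded its day 0 level in both tumours. SSX3 (chrX:48346427-48356707) scored -0.46 and -0.42 in culture and -0.65 and -0.53 in the tumours, below day 0 in each, and was called in neither arm (adjusted p = 0.409 and 0.109). A second match was found at 63.8% of the candidate sites of SSX1 and 62.1% of those of SSX3, and SSX3 held 14 of 69 sites of SSX1. Which guides cut the part of SSX1 kept in the fusion cannot be told without their sequences.

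No gene of the 49 rose with a call. The highest mean effects were in SIGLEC14, TSSK1B, AGTR1 and SPTBN5. SIGLEC14 (chr19:51639478-51646825), a lectin of myeloid cells that binds sialic acid, scored 0.41 and 0.74 in culture and 0.53 and 1.5 in the tumours, above day 0 in all 4 arm libraries, and 9 of 10 guides were above 0 in each arm. Its effects of 0.58 ± 0.33 and 1.02 ± 0.33 had adjusted p = 0.474 and 0.0607 (limma), on a scale whose zero lies below the non-targeting guides. From the lower run of numbers alone SIGLEC14 reached 1.27 in vivo and passed the test (adjusted p = 0.0253). TSSK1B, a kinase of the testis, scored -0.14 and 0.17 in culture and 0.68 and 0.78 in the tumours, with all 9 guides above 0 in vivo (adjusted p = 0.0622). AGTR1, the angiotensin II receptor of type 1, scored 0.24 and 0.53 in culture and 0.69 and 0.01 in the tumours, and SPTBN5, a beta spectrin, scored 0.07 and 0.09 in culture and 0.27 and 0.91 in the tumours. Under scaling to the non-targeting guides, the effect of AGTR1 turned to -0.14 in vitro and -0.19 in vivo. Those of SPTBN5 and TSSK1B turned to -0.45 and -0.52 in vitro. The direction is thus not settled for AGTR1 in either arm and for SPTBN5 and TSSK1B in vitro. No alternative turned the in vivo effects of SPTBN5 (0.59) and TSSK1B (0.73), and neither was called.

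Single guides were tested by edgeR's quasi-likelihood test over the 3607 guides. None of the 475 was called in vitro, where 0% of all guides were called lower and 0% higher. The smallest adjusted p there was 0.198. At an unadjusted p under 0.05 43 guides were lower and 1 higher, beside 259 and 44 of all 3607. DESeq2 called 15, and limma on the authors' normalized values 4. In vivo 8 fell and 3 rose, beside 1.14% of all guides lower and 0.554% higher. With either replicate block 0 of the 11 calls were left, while DESeq2 called 96 guides, and leaving out any 1 of the day 0 or day 14 libraries also left 0. Without in vivo replicate 1 or 2 more guides were called in both arms. Counts under settings other than the main one are of the 475 alone, without the share of all 3607 guides beside them. They show nothing particular to the 475. 4 of the falling guides were in the lower run of numbers and 4 in the upper run.

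Of the guides that fell, those of LGALS7B, CSH2, RASA4B, TYW1B, MTRNR2L3 and AGAP12P are given with their genes above. Of these genes, AGAP12P was called in neither arm from all its guides and MTRNR2L3 in vitro alone. The other 2 guides belong to HBM and KIAA1324L, which were also called in neither arm. HBM encodes a globin of the alpha cluster, and its guide 2114 had 141 and 159 CPM at day 0, 44.7 and 44.3 CPM in culture and 2.22 and 1.98 CPM in the tumours (log2 fold change -6.15 in vivo, edgeR, adjusted p = 0.0426). KIAA1324L (now ELAPOR2) is a membrane protein, and its guide 2236 had 103 and 159 CPM at day 0, 63.5 and 149 CPM in culture and 1.66 and 3.35 CPM in the tumours (log2 fold change -5.68, adjusted p = 0.0481), with day 14 libraries near the day 0 level and both tumours far below it. The gene scores of HBM and KIAA1324L were 0.02 and -0.53 in culture and -0.51 and -1.76 in the tumours, and -0.34 and -0.29 in culture and 0.04 and -0.05 in the tumours, so each of these guides stood apart from the median of its gene. ZNF493, a zinc finger gene, held a guide of the same kind: guide 3469 had 141 and 55.2 CPM at day 0, 0.784 and 0.665 CPM in culture and 0.554 and 1.37 CPM in the tumours, nearly lost from all 4 arm libraries (adjusted p = 0.0646 in vivo), while the gene scored -0.11 and 0.27 in culture and 0.08 and -1.04 in the tumours.

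The 3 guides that rose with a call were BICDL1 2458, described above, SPTBN5 2309 and PRDM7 2248. SPTBN5 2309 had 144 and 137 CPM at day 0, 229 and 169 CPM in culture and 705 and 718 CPM in the tumours, with nearly equal tumours (log2 fold change 2.34, edgeR, adjusted p = 0.047). PRDM7 2248 had 99.2 and 138 CPM at day 0, 276 and 332 CPM in culture and 685 and 534 CPM in the tumours and was the guide with the highest log2 fold change in vitro (1.36, adjusted p = 0.404), and it was called in vivo (2.36, adjusted p = 0.0498). TNFRSF6B 2271, which was high in both tumours, had 159 and 68.6 CPM at day 0, 121 and 67.9 CPM in culture and 711 and 1001 CPM in the tumours without a call (adjusted p = 0.0535). The highest log2 fold changes in vivo belonged to guides that expanded in 1 tumour. AGTR1 3297 had 85.9 and 191 CPM at day 0, 114 and 186 CPM in culture and 9834 and 70.8 CPM in the tumours, and TSSK1B 3262 had 254 and 189.8 CPM at day 0, 185 and 199 CPM in culture and 9783 and 176 CPM in the tumours. Both were abundant in in vivo replicate 1 and near or below the day 0 level in replicate 2, and neither was called (adjusted p = 0.129 and 0.118). The other guides among the 5 highest in vitro, none of them called there, were EIF2AK1 3450, SIGLEC12 2590, C22orf23 3472 and AGTR1 3296, with log2 fold changes of 1.28, 1.20, 1.04 and 1.04. EIF2AK1 3450 had 87.0 and 77.0 CPM at day 0, 197 and 203 CPM in culture and 361 and 25.7 CPM in the tumours, and SIGLEC12 2590 had 78.8 and 58.7 CPM at day 0, 142 and 175 CPM in culture and 114 and 305 CPM in the tumours. C22orf23 3472 had 134 and 151 CPM at day 0, 306 and 280.3 CPM in culture and 173 and 98.4 CPM in the tumours, the single guide above 0 in vitro of a gene that was called lower in vivo. AGTR1 3296 had 360.2 and 277 CPM at day 0, 542 and 765 CPM in culture and 634 and 353 CPM in the tumours.

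The remaining genes did not pass the test. Of the 49 genes, 31 were called in neither arm, with effects of -0.77 to 0.58 in vitro (median -0.17) and -1.14 to 1.02 in vivo (median -0.15), and standard errors over all 49 of 0.23 to 0.50. Cell surface genes among them were the adhesion molecules CEACAM6 and CEACAM7, at 0.11 and -0.02 in vivo, and the lectin SIGLEC12 at -0.15. The stress kinase gene EIF2AK1, which responds to low heme, had -0.37 in vitro and -0.36 in vivo, and TRIM5, a restriction factor of retroviruses, had 0.25 and 0.09. DNAI1, a dynein chain of cilia, had 0.01 and -0.06, and RNF212, a factor of meiotic recombination, had -0.27 and -0.19. The zinc finger genes ZNF205 and ZNF597 had -0.68 and 0.24 in vivo, and ANXA2R, a receptor of annexin A2, had -0.66. CALML5, C11orf71, C16orf74 and C4orf48 had in vivo effects of -0.20, 0.23, 0.04 and 0.01. In C4orf48 the tumours disagreed, with scores of -0.73 and 0.75. A p that misses the threshold does not show that these guides left growth unchanged.

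Guides of 1 gene spread widely. The range of log2 fold changes within a gene had a median of 1.95 in vitro and 4.17 in vivo, and reached 7.72 in ZNF493 in vitro and 11.51 in AGAP12P in vivo. AGAP12P held both the lowest of all 486 guides in vitro, 3269, and guide 1672, which stood among the 5 highest in vivo.

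The arms were compared directly, in vivo against day 14 in vitro. No guide of the 475 was called (edgeR, smallest adjusted p = 0.0515, beside 0% of all guides lower and 0.0277% higher). With an unadjusted p under 0.05 32 guides were lower in the tumours and 39 higher, beside 200 and 308 of all guides tested. DESeq2 called 31 of the 475, and no share of all guides is set beside that count. No gene of the 49 was called (limma, beside 0% of all genes lower and 0% higher). The unadjusted p was below 0.05 in 6 genes that were lower and 1 that was higher, beside 29 and 11 of the other 299. With second set guides alone these counts were 3 and 0 of the 49, beside 44 and 13 of the 299. Without in vivo replicate 1 or 2 some genes and guides were called, also without such a share beside them. The largest differences were in CSH2 and C8orf82, lower in vivo by 1.46 and 1.36 on the log2 scale (adjusted p = 0.0669 and 0.13), and BICDL1 was lower by 1.13 (adjusted p = 0.0669). A call in 1 arm and not in the other is thus not shown to be a difference between culture and tumour for any of these genes.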

How the data were processed

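The deposited counts give, for each guide and library, the whole number of reads that the authors assigned to it with MAGeCK from paired-end sequencing, as the study's methods state. The authors' normalized values, deposited as a second table of signal, are the counts times 1 constant per library. How that constant was set, and the versions of MAGeCK and hg38 named in the submitters' processing notes, are not given in the sources used here. All genes, lists and comparisons were chosen with earlier results of these data known.

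The 3607 of 3653 guides whose day 0 counts averaged 30 or more had library sizes set by TMM and entered edgeR 4.0.16 (glmQLFit and glmQLFTest, all 6 libraries, common dispersion 0.303, R 4.3.3). Gene scores were medians of log2(CPM + 1) minus the day 0 mean, tested with limma 3.58.1. P-values are two-sided and adjusted by Benjamini-Hochberg over all guides or all 348 genes, with calls under 0.05. Genes given in depth were the 8 lowest and 4 highest by mean effect, called genes and guides, the 5 lowest and highest guides of each arm, and the members of 5 gene lists. Other single guides (BICDL1 2456, C8orf82 3390, and SSX1 1522 and 3244) were chosen after their values were seen. As an exception to this rule, 1 gene that it names, one of the 8 lowest, a listed copy and called in both arms, is counted but its values are not reported here. Depth was 3394352 to 21854232 counts per library. Each group had 2 libraries, and the part of depth in the precision was not tested.

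By the methods each transduction gave a day 0 aliquot and both arms, whereas the labels number the tumours 1 and 2 and a plot of the study names both as replicate 1. Over guides, the deviations of same-numbered libraries from their group means had correlations of 0.0694 (day 0 with culture), 0.00198 (day 0 with tumours) and 0.00252 (culture with tumours), so the block was fitted as an alternative, by label and by transduction. Other alternatives were other scalings, filters, cutoffs, thresholds, gene scores, DESeq2 1.42.0, limma on log2 of the deposited normalized values plus 1, the 2 groups alone and leaving out each library. Scores from second set guides alone, with and without the upper run of numbers, were added after seeing the data.

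Candidate sites were taken from GENCODE 44 on hg38, where 339 genes matched by name, 8 by a RefSeq synonym and 1 by its RefSeq span. The fits were tested on simulated data, drawn with 1 dispersion (0.303) for all guides and libraries. Of 100 guides lowered 16-fold 89 were recovered in vitro and 91 in vivo, and of 100 lowered 4-fold 8 and 13. Real guides need not share that dispersion. In the real data 68 of the 3607 guides were more than 8-fold low in both culture libraries, and 0 were called in vitro. The recovered shares thus do not measure the power on the real guides. Of 10 genes with all guides lowered 4-fold 10 and 9 were recovered, and of 10 lowered 2-fold 4 and 2. Tables were made with Python 3.11.15 and pandas 2.3.3.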

Additional observations from a re-analysis of the deposited data

How the results depend on the processing

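Counts of calls moved with most choices, and the cause was not tested. Counts under the alternatives are of the 475 guides and 49 genes alone. The shares of all guides or genes under the same setting are not set beside them here. The values without an alternative were 0, 11 and 0 guides called in vitro, in vivo and between the arms, and 6, 17 and 0 genes. With the replicate number as a block, 0 guides were called in vivo and 10 and 19 genes in vitro and in vivo, and with the pairing by transduction 0 guides and 5 and 11 genes. The labels give no more than a number for the pairing.

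Scaling to the non-targeting guides gave median log2 fold changes of -1.02 in vitro and -0.97 in vivo, 26 guides called in vivo and 1 between the arms, 27 and 30 genes called, 36 guides low in both culture libraries and 1 high in both tumours. It turned the effects of AGTR1 (-0.14 in vitro and -0.19 in vivo), SPTBN5 (-0.45 in vitro), TSSK1B (-0.52 in vitro) and AGAP12P (-0.32 in vivo). Median-ratio scaling gave a median of -0.45 in vitro and 1 guide called between the arms. DESeq2 called 15, 96 and 31 guides in vitro, in vivo and between the arms, with a median of -0.45 in vitro. Limma on the authors' normalized values called 4, 47 and 3, with medians of -0.99, -1.17 and -0.10. Fitting the compared groups alone called 46 guides and 23 genes in vitro and 0 guides in vivo. At an adjusted p under 0.2, 1, 124 and 15 guides and 18, 30 and 3 genes were called.

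The mean over guides in place of the median called 14 genes in vitro and 1 between the arms, and turned SPTBN5 (-0.011) and TSSK1B (-0.022) in vitro and AGAP12P (-0.67) in vivo. A pseudocount of 10 CPM called 12 genes in vitro. Counts summed per gene called 3, 11 and 3 genes and turned, in vivo, BICDL1 (1.00), TYW1B (0.90), C22orf23 (0.35), SSX3 (0.23) and CHRFAM7A (0.12). The lower run of numbers alone called 3 genes in vitro. At a cutoff of 2-fold, 68 and 94 guides were low in both culture and both tumour libraries and 1 and 15 high, and at 8-fold 6 and 23 were low and 0 high in the tumours.

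Leaving out 1 library at a time gave 0 to 46 guides called in vitro, 0 to 159 in vivo and 0 to 106 between the arms, and 0 to 23, 5 to 29 and 0 to 15 genes. Medians ran from -0.50 to -0.40 in vitro, -0.69 to -0.24 in vivo and -0.23 to 0.15 between the arms. Guides low in both libraries numbered 15 to 39 in culture and 38 to 93 in the tumours, and high ones 0 to 1 and 4 to 17, where an arm with 1 library left is judged on that library. The effects that ran through 0 were those of AGAP12P (-0.21 to 0.074), SPTBN5 (-0.071 to 0.22) and TSSK1B (-0.1 to 0.21) in vitro and of CHRFAM7A (-0.74 to 0.41) in vivo, which turned without day 0 replicate 1, day 0 replicate 1, day 14 replicate 2 and in vivo replicate 1 in that order. The filter on low counts, absent or raised to 300, changed no count of calls. Over 952 pairs of a named gene's effect and an alternative, 758 kept direction and side of the threshold, 82 lost a call, 95 gained one and 17 turned. In the simulated data, drawn with 1 dispersion, most guides lowered 4-fold were missed, which does not measure the power on the real guides.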
